A study of Rattus norvegicus with 42 samples.

Results

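The transcripts described here encode 8 enzymes of glycogen metabolism in the neonatal rat hippocampus after a single dose of phenobarbital (PB) or levetiracetam (LEV). The 8 genes (Pygm, Pygb, Pygl, Ugp2, Gyg1, Gys1, Gbe1 and Pgm1) were chosen by name, and Pygm was chosen because it changed after PB in these same libraries. Each of the 8 genes had 1 transcript among the 15516 transcripts in the count table, and all 8 transcripts were among the 13062 that passed the filter on low counts. RNA was sequenced from the hippocampi of male wild type Sprague Dawley pups, 1 library per animal. On postnatal day 7 the pups were injected intraperitoneally with saline vehicle (VEH, 13 animals analysed), 75 mg/kg PB (14 animals) or 200 mg/kg LEV (14 animals), and tissue was taken 72 hours later, on postnatal day 10. All groups shared euthanasia with pentobarbital, itself a barbiturate, and perfusion with buffered saline before dissection. Treatments were balanced within litter and each group took no more than 1 pup from a litter, but the labels do not tie the animal numbers to litters. A further VEH animal, animal 7, is marked as excluded in the labels and entered no comparison.

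Glycogen is the store of glucose in animal tissue, and in the brain most of it is held by astrocytes. UDP-glucose pyrophosphorylase makes the activated glucose, glycogenin primes a new chain, glycogen synthase lengthens it and the branching enzyme adds branches. Glycogen phosphorylase releases glucose 1-phosphate from the chains, and phosphoglucomutase converts this to glucose 6-phosphate for glycolysis. Phosphorylase has a muscle form, a brain form and a liver form, encoded by Pygm, Pygb and Pygl, and the muscle form is also found in astrocytes.

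The comparisons below turn on the 3 phosphorylase genes, so the 250 bases before the annotated start of each are shown, 5′ to 3′ in the direction of the gene, from RefSeq on GRCr8. The windows are chr1:213119555-213119804 on the plus strand for Pygm, chr3:160071891-160072140 on the plus strand for Pygb and chr6:94476220-94476469 on the minus strand for Pygl. Capitals mark letter matches on either strand. The motifs searched were an E-box, with the letters CAGCTG, and the box for the nuclear factor Y complex, with the letters CCAAT. The classical core promoter motif was searched in the usual spelling TATAAA and also, as a close variant of the same motif, in the spelling TTTAAA. The binding motif of the Sp1 family, known as the GC box, was searched with the letters GGGCGG. A further E-box, recognised by other helix-loop-helix proteins, with the letters CACGTG, was searched as well and was absent from the 3 windows, and the TATA variant was added after the Pygm sequence had been read.
Pygm: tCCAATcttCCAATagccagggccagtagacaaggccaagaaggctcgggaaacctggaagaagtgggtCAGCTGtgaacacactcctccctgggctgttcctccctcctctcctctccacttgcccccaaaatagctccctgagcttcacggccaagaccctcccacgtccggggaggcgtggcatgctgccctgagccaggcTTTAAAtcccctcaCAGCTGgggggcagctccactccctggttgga
Pygb: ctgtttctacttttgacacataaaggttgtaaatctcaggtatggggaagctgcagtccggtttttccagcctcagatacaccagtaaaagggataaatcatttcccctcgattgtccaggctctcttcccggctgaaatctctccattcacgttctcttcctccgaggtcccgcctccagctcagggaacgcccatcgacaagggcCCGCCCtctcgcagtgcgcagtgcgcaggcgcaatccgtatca
Pygl: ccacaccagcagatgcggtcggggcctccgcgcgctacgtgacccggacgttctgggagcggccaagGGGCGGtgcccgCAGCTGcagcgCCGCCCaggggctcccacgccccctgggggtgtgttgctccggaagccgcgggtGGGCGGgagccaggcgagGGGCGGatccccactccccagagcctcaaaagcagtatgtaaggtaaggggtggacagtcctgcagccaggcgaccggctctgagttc
The Pygm window held 2 matches to the first E-box, of which the nearer lay 32 bases before the start. It also held 2 matches to the CCAAT box and 1 to the TATA variant, 46 bases before the start, and no match to the GC box. The Pygb window held 1 match to the GC box and none to the other motifs. The Pygl window held 4 matches to the GC box and 1 to the first E-box. Of 33469 rat windows of this length, 12.0% held the first E-box, 34.0% the CCAAT box, 12.9% the TATA box, 12.3% its variant, 30.5% the GC box and 5.59% the second E-box. These are letter matches only. GC content was 60.4% in the Pygm window, 53.6% in the Pygb window and 71.2% in the Pygl window.

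Totals ran from 9499492 to 14488134 estimated counts per library, with a median of 11319144. The sample codes came in 2 forms, which divide each group into animals 1 to 6 and animals 7 to 14, and this form was used as the batch, although the labels do not say what it stands for. The library of VEH animal 1 held 1 count of the Y-linked Eif2s3y and 0 of Ddx3, against 705 to 1028 and 475 to 891 counts in the other 40 analysed animals, although the pups were described as male, and results that rest on it are given with and without it. Levels below are normalized counts, that is counts scaled to the mean effective library size of 11405252, and differences are log2 fold changes from one edgeR quasi-likelihood model of the 3 groups with the code form as an additive term. A transcript was called when its Benjamini-Hochberg adjusted p over all tested transcripts was under 0.05 and its log2 fold change at least 0.32 in size, the fold limit. The summed level of 9 genes of hippocampal neurons was 2473 to 3506 CPM (counts scaled to library size) in all animals.

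Pygm, the muscle form of glycogen phosphorylase, was lower in PB than in VEH animals, and since it was selected on this difference its values are given as a description with no test. The transcript (NM_012638) lies at chr1:221756325-221771143 on rn6. Among animals 7 to 14, the lowest, median and highest normalized counts were 201, 227 and 303 in VEH, 152, 169 and 192 in PB, and 194, 214 and 253 in LEV. All 8 PB animals in this set lay below the lowest VEH animal and below the lowest LEV animal. Among animals 1 to 6 the corresponding values were 197, 256 and 276 in VEH, 176, 191 and 236 in PB, and 154, 206 and 262 in LEV. Here the groups overlapped, and 3 of 6 PB animals lay below the lowest VEH animal. Over both sets, all 14 PB animals were under the VEH average of their own set. PB and VEH of animals 7 to 14 did not overlap for 0.85% of all tested transcripts and PB and LEV for 0.329%.

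**Figure D1:**
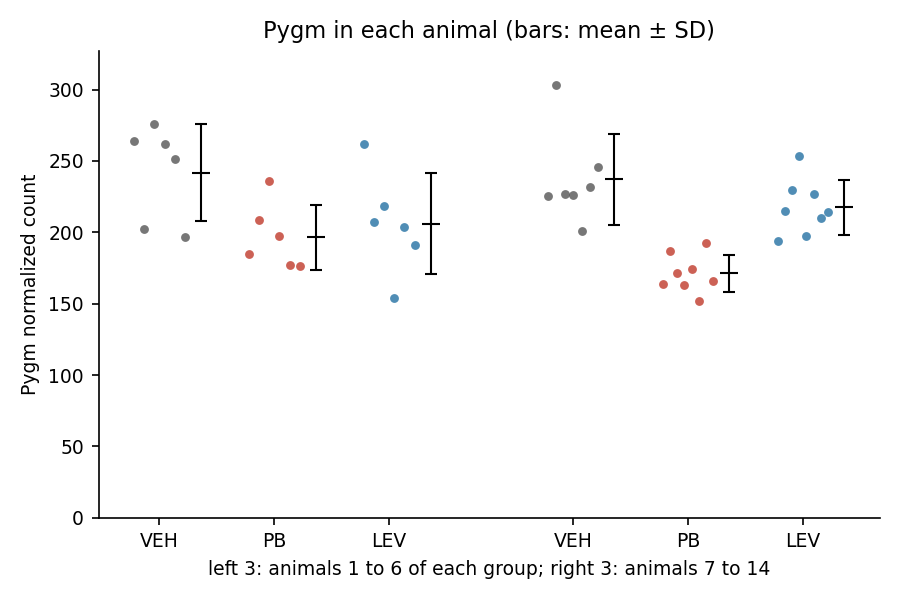
Normalized count of Pygm (vertical axis) in each of 41 animals, by treatment and by the 2 forms of sample code, with 1 point per animal and bars for the mean ± SD. In animals 7 to 14 the PB points sit between 152 and 192 and the VEH points between 201 and 303, while the groups of animals 1 to 6 overlap.

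The Pygm mean was 239 ± 31.5 (SD, n = 13) in VEH, 182 ± 21.5 (SD, n = 14) in PB and 213 ± 26.5 (SD, n = 14) in LEV, so the order of the levels was VEH, LEV, PB. The fitted log2 fold change of PB against VEH was -0.39 (SE 0.07), a level 1.31-fold lower. Within animals 1 to 6 it was -0.30 (SE 0.10) and within animals 7 to 14 it was -0.47 (SE 0.09). Without VEH animal 1 the pooled value was -0.38, and when any 1 of the 41 animals was dropped it ran from -0.42 to -0.36. Against LEV, a comparison that uses the same PB animals, the value was -0.23 (SE 0.07), again with no test, and it was -0.07 (SE 0.10) in animals 1 to 6 and -0.35 (SE 0.09) in animals 7 to 14. For LEV against VEH, which shares the VEH animals with the comparison that chose Pygm, the log2 fold change was -0.17 (SE 0.07). Of the LEV animals 12 of 14 were under the VEH average for their set, and both values are again a description with no test. VEH and LEV, neighbours in the order, overlapped in both sets of animals, and LEV and PB overlapped in animals 1 to 6 alone. In bulk tissue, fewer cells that express a transcript and less of it in each cell cannot be told apart.

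Pygb, the brain form of phosphorylase, had an adjusted p under 0.05 after PB, but its change was small and did not reach the fold limit. The transcript (NM_013188) lies at chr3:146582708-146629505 on rn6. In animals 1 to 6 the lowest, median and highest normalized counts were 3892, 3965 and 4168 in VEH, 3504, 3664 and 3815 in PB, and 3438, 3493 and 3805 in LEV. Neither drug group overlapped VEH in this set. The values of animals 7 to 14 were 3645, 4107 and 4428 in VEH, 3538, 3850 and 4112 in PB, and 3973, 4146 and 4311 in LEV. All 3 groups overlapped here, and 7 of 8 PB animals were under the VEH average. In animals 1 to 6, PB and VEH did not overlap for 1.36% of all tested transcripts, and LEV and VEH for 3.17%.

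The Pygb log2 fold change of PB against VEH was -0.10 (SE 0.03, edgeR adjusted p = 0.0375), and 13 of 14 PB animals were under the VEH average for their set. At this limit, an adjusted p under 0.05 with no fold limit, 5.39% of all tested transcripts passed and 3.46% were lower after PB. Without VEH animal 1 the value was -0.09 and the adjusted p 0.061. When single animals were dropped, the edgeR adjusted p ran from 0.0112 to 0.0674 and was under 0.05 in 31 of 41 fits. Over 16 other settings of the analysis, DESeq2 fits included, the adjusted p ran from 0.0165 to 0.29 and was under 0.05 in 8. DESeq2 gave 0.0173 at its defaults and 0.0189 without its filtering, both among the 8. Animals 1 to 6 gave -0.12 (SE 0.04) and animals 7 to 14 gave -0.08 (SE 0.03), and the test of their difference had an adjusted p of 0.791. For PB against LEV the value was -0.04 (SE 0.03, adjusted p = 0.473).

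For LEV, the values of Pygb differed between the 2 sets of animals with an adjusted p just under the limit. LEV against VEH gave -0.17 (SE 0.04) in animals 1 to 6, where all 6 LEV animals lay below the lowest VEH animal, and 0.03 (SE 0.03) in animals 7 to 14, where 6 of 8 were over the VEH average. The difference of these log2 fold changes was -0.20 (SE 0.05, edgeR interaction test, adjusted p = 0.0382). It was 1 of 8 such tests on these enzymes to pass, against 0.842% of all tested transcripts for LEV. Gbe1 did not pass for LEV, with a difference of 0.34 (SE 0.11, edgeR interaction test, unadjusted p = 0.0037, adjusted p = 0.138). For PB 0 of 8 passed (1 with an unadjusted p under 0.05, Gbe1 at 0.0155), against 0.0689% of all tested transcripts. Without VEH animal 1 the Pygb difference for LEV was -0.19 (adjusted p = 0.0959). When any 1 animal was dropped its adjusted p ran from 0.0145 to 0.0984 and was under 0.05 in 20 of 41 fits. The summed level of 14 astrocyte genes moved with this Pygb difference. It was 4696 to 5323 CPM in LEV against 5332 to 6255 in VEH in animals 1 to 6, with no overlap. In animals 7 to 14 it was 5787 to 6382 against 5927 to 6540. Its part in the difference was not tested. Pooled over the sets the Pygb value for LEV was -0.06 (SE 0.03, adjusted p = 0.844).

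Pygl, the liver form, was at 30 to 82 counts per library, the least counted of the 8. The transcript (NM_022268) lies at chr6:92597759-92643735 on rn6. Over both sets, the lowest, median and highest normalized counts were 36.2, 46.1 and 69.0 in VEH, 34.4, 53.4 and 79.5 in PB, and 33.0, 45.8 and 65.7 in LEV. The groups overlapped through most of their range, and 10 of 14 PB animals were over the VEH average for their set. The log2 fold change was 0.20 after PB (SE 0.12, 95% interval -0.04 to 0.44, edgeR adjusted p = 0.35) and -0.01 after LEV (SE 0.12, adjusted p = 0.994). At this depth a rise of up to 0.44 on the log2 scale lay within the interval for PB. Pygm made up 5.56% ± 0.813 (SD, n = 13) of the phosphorylase counts in VEH, 4.56% ± 0.571 (SD, n = 14) in PB and 5.15% ± 0.634 (SD, n = 14) in LEV. These shares rest on the difference that chose Pygm and are not corrected for transcript length, so they compare animals and not the levels of the 3 genes.

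**Figure D2:**
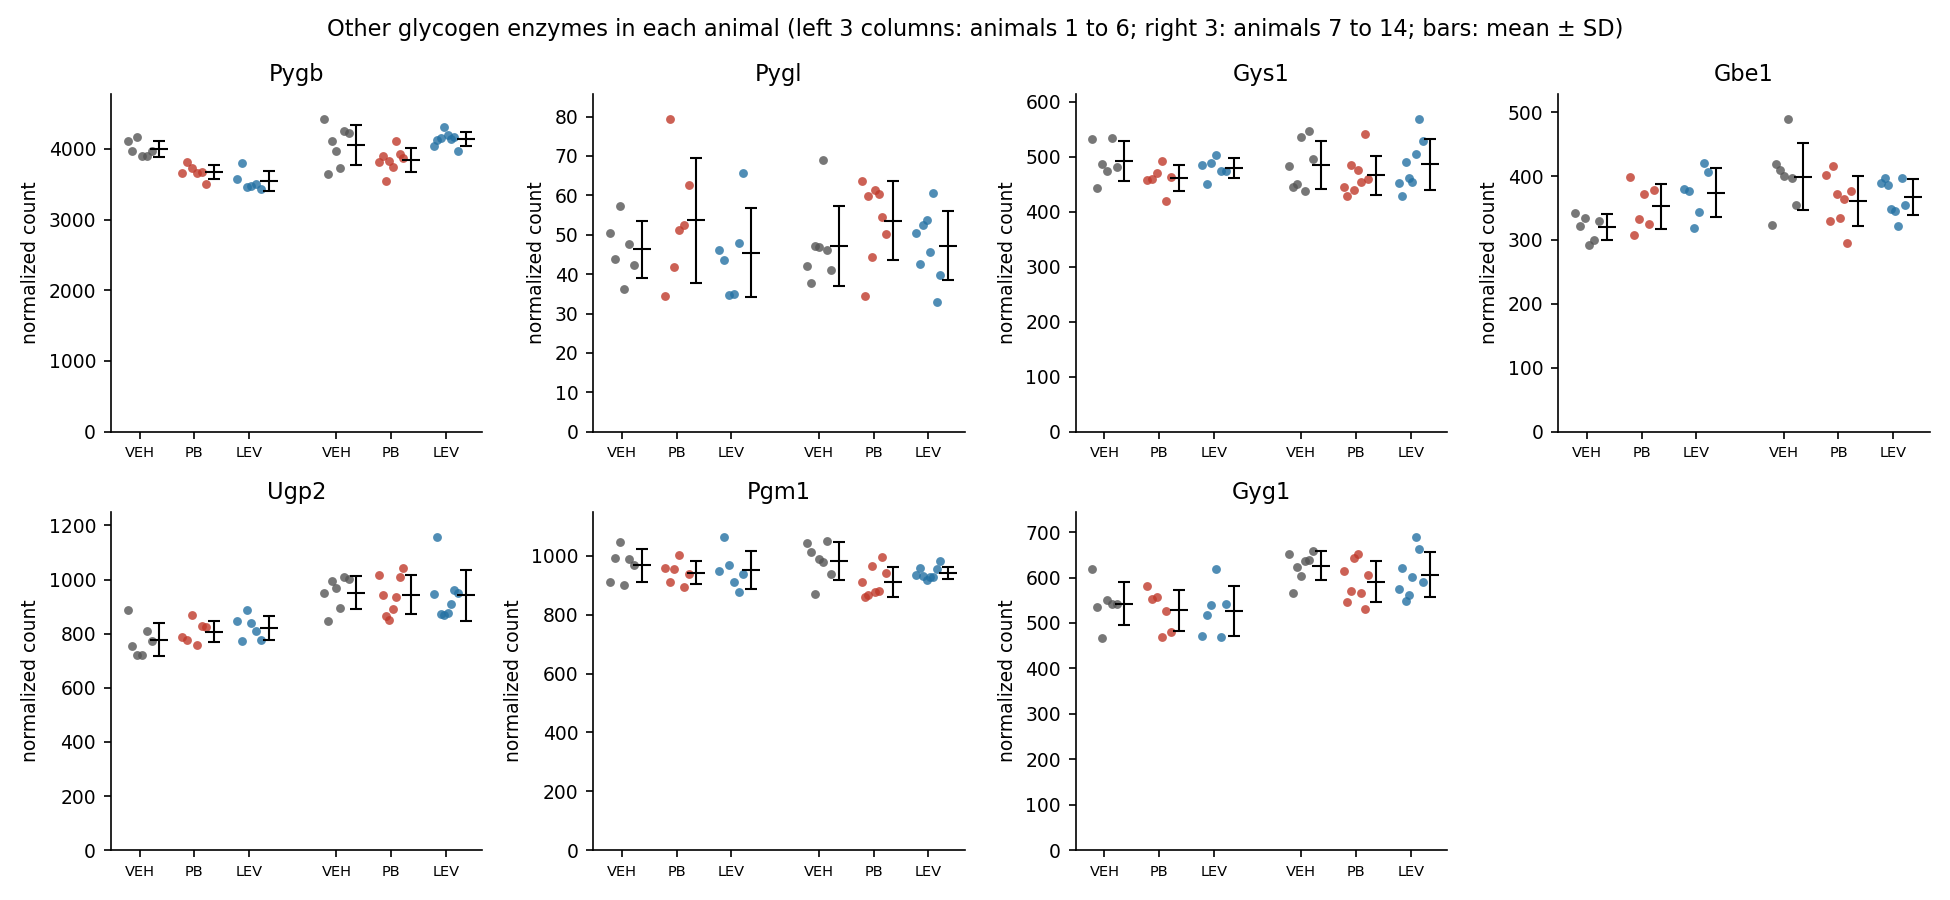
Normalized counts of the 7 other enzymes (1 panel each, vertical axes from 0) in 41 animals by treatment, with animals 1 to 6 in the left 3 columns and animals 7 to 14 in the right 3, and bars for the mean ± SD. The Pygb panel shows LEV below VEH on the left alone, and the Ugp2 and Gyg1 panels show lower levels in animals 1 to 6 of every treatment.

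The enzymes that build glycogen showed no call after either drug. Ugp2 (NM_001024743, chr14:106208176-106248540) encodes UDP-glucose pyrophosphorylase. Its lowest, median and highest normalized counts were 722, 886 and 1008 in VEH, 758, 867 and 1042 in PB, and 772, 874 and 1157 in LEV. The log2 fold change was 0.02 (SE 0.04, adjusted p = 0.864) after PB and 0.03 (SE 0.04, adjusted p = 0.977) after LEV. Group means differed more between the sets of animals than between treatments. The VEH mean was 778 ± 62.3 (SD, n = 6) in animals 1 to 6 and 952 ± 60.8 (SD, n = 7) in animals 7 to 14.

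Gyg1 (NM_031043, chr2:104916735-104955808) encodes glycogenin, the protein on which a glycogen chain is started. Normalized counts were 468, 604 and 658 (lowest, median and highest) in VEH, 469, 562 and 653 in PB, and 470, 568 and 689 in LEV. The groups overlapped almost entirely. The log2 fold change was -0.06 (SE 0.04, adjusted p = 0.442) after PB and -0.05 (SE 0.04, adjusted p = 0.949) after LEV. As for Ugp2, the VEH mean was lower in animals 1 to 6, at 543 ± 47.7 (SD, n = 6), than in animals 7 to 14, at 626 ± 31.8 (SD, n = 7).

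Gys1 (NM_001109615, chr1:101427195-101447093) encodes the glycogen synthase of muscle and brain. Normalized counts were 438, 484 and 546 (lowest, median and highest) in VEH, 420, 459 and 542 in PB, and 428, 480 and 569 in LEV. In PB, 12 of 14 animals were under the VEH average for their set, but the ranges overlapped. The log2 fold change was -0.08 (SE 0.04, 95% interval -0.16 to 0.01, adjusted p = 0.308) after PB and -0.02 (SE 0.04, adjusted p = 0.989) after LEV.

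Gbe1 (NM_001100502, chr11:7210169-7485896) encodes the branching enzyme. In animals 1 to 6 its normalized counts were 292, 326 and 342 (lowest, median and highest) in VEH, 307, 353 and 399 in PB, and 318, 378 and 420 in LEV. In animals 7 to 14 they were 324, 401 and 490 in VEH, 295, 368 and 415 in PB, and 323, 370 and 398 in LEV. In the first set 5 of 6 PB and 5 of 6 LEV animals were over the VEH average. In the second set 6 of 8 PB and 8 of 8 LEV animals were under it, and both drug groups overlapped VEH in each set. The log2 fold change after PB was 0.14 (SE 0.08) in animals 1 to 6 and -0.14 (SE 0.07) in animals 7 to 14, and after LEV it was 0.23 (SE 0.08) and -0.12 (SE 0.07). The edgeR interaction tests gave adjusted p values of 0.323 for PB and 0.138 for LEV, so neither difference passed. Pooled, the values were -0.02 (SE 0.06, adjusted p = 0.908) after PB and 0.03 (SE 0.06, adjusted p = 0.987) after LEV.

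Pgm1 (NM_017033, chr5:118743632-118803056) encodes a phosphoglucomutase, which serves both the making and the use of glycogen. Normalized counts were 868, 989 and 1051 (lowest, median and highest) in VEH, 859, 924 and 1002 in PB, and 877, 936 and 1063 in LEV. In PB, 12 of 14 animals were under the VEH average for their set, as did 12 of 14 in LEV. The log2 fold change was -0.08 (SE 0.03, unadjusted p = 0.0165, edgeR adjusted p = 0.137) after PB and -0.04 (SE 0.03, adjusted p = 0.914) after LEV.

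**Figure D3:**
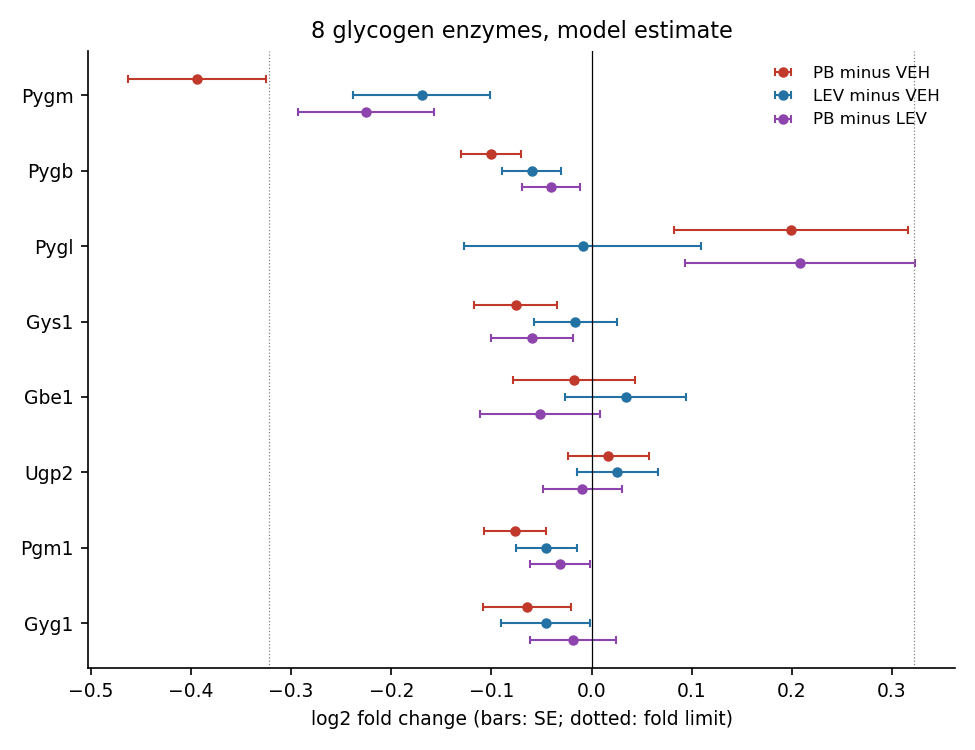
Log2 fold change (horizontal axis, with SE bars) of the 8 enzymes for PB against VEH, LEV against VEH and PB against LEV, where dotted lines mark the fold limit of 0.32. Pygm at -0.39 after PB is the value beyond the dotted lines, and it is the gene that was selected on that comparison.

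Counted together, 1 of 8 enzymes was called after PB, and this was the selected Pygm, against 0.605% of all tested transcripts. Their median log2 fold change was -0.07, beside 0.00 over all tested transcripts. Values were below 0 for 6 of 8 enzymes and for 6277 of all 13062 tested transcripts. After LEV 0 of 8 were called by edgeR, against 0% of all tested transcripts, while 1 of 8 (the selected Pygm) and 763 of all had an unadjusted p under 0.05. DESeq2 at its defaults likewise called 0 of 8 after LEV and 5 of all tested transcripts. With no fold limit 0 of 8 passed after LEV, against 0.00766% of all tested transcripts, and the median log2 fold change was -0.03. For PB against LEV 0 of 8 were called by edgeR or DESeq2, beside 0.582% of all tested transcripts called by edgeR. An unadjusted edgeR p under 0.05 was found for 1, the selected Pygm, beside 2565 of all 13062. Nothing is read from the values of Pygm in these counts.

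Muscle itself is rich in Pygm and Gys1, so transcripts of skeletal muscle were read in every animal. Ckm, the creatine kinase of muscle, had 26 to 46 counts in VEH animals 1 to 6 and 13 to 46 in LEV animals 1 to 6, but 0 or 1 in PB animals 1 to 6. Among animals 7 to 14 it had 0 counts in every VEH and PB library and 0 to 2 in LEV. Myh4, a fast myosin heavy chain, had 40 to 81 counts in VEH animals 1 to 6, 29 to 97 in LEV animals 1 to 6 and 3 to 9 in PB animals 1 to 6. Among animals 7 to 14 Myh4 had 0 to 11 counts in VEH, 1 to 7 in PB and 1 to 7 in LEV. The high counts were thus limited to the VEH and LEV libraries of animals 1 to 6.

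Of 30 muscle genes listed, 27 were found, with 38 transcripts, of which 10 passed the filter. Their summed level was 51.9 to 71.8 CPM in VEH animals 1 to 6, 49.1 to 82.9 in LEV animals 1 to 6 and 31.4 to 38.5 in PB animals 1 to 6. In animals 7 to 14 it was 26.6 to 39.3 CPM in VEH, 24.7 to 39.8 in PB and 29.6 to 36.6 in LEV. After PB, 3 of 10 were called, all lower, against 0.605% of all tested transcripts. They were Atp2a1, a calcium pump (-2.46, SE 0.45), Myh4 (-2.06, SE 0.44) and Acta1, skeletal actin (-0.44, SE 0.11, edgeR adjusted p = 0.0102). Atp2a1 had 41 to 82 counts in VEH animals 1 to 6, 20 to 84 in LEV animals 1 to 6 and 0 to 12 elsewhere. Atp2a1 and Myh4 thus passed the filter mainly through those VEH and LEV animals, so their lower PB values are a description with no test. For the same reason nothing is read from the count of 3 beside the share over all tested transcripts. With any 1 of LEV animals 1 to 6 left out, 1 muscle transcript was called after PB. The filter was run again in each such fit, so a transcript could leave the tested set, and whether one did is not given here. In animals 7 to 14 alone 0 were called by edgeR. After LEV 0 of 10 were called and 0 had an unadjusted p under 0.05 in edgeR, and DESeq2 called 0.

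Ckm was at 0 in every VEH and PB library of animals 7 to 14. The 12 animals that held at least 10 Ckm counts were all of the VEH and LEV animals 1 to 6, so a fit without them compares animals 7 to 14 alone and adds nothing to the values of that set. With the muscle level as a covariate the Pygm log2 fold change of PB against VEH was -0.42, a description with no test, and Pygb gave -0.11 (edgeR adjusted p = 0.0669). The part of muscle tissue in the values of animals 1 to 6 was not tested.

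Across animals, with the mean of each treatment and code form removed, Pygm and the summed muscle level had a Pearson r of 0.22 and a Spearman rho of 0.19 (n = 41, two-sided permutation within groups, p = 0.273 and p = 0.274). Within animals 1 to 6 Pearson r was 0.19 (n = 18, permutation p = 0.561) and within animals 7 to 14 it was 0.26 (n = 23, permutation p = 0.265). Without the 2 animals farthest from the median muscle level r was 0.19. The same was computed for all 8 enzymes, and Pearson r ran from -0.31 for Pygl to 0.32 for Pgm1, with 0 of 8 permutation p values under 0.05 and a lowest value of 0.266 after adjustment over the 8 relations. By Spearman rho, Pygl gave -0.42 (permutation p = 0.0116, adjusted p = 0.093). With Ckm and Myh4 alone in place of the list, Pygm had a Pearson r of 0.19 (n = 41, permutation p = 0.259). In animals 7 to 14 Ckm and Myh4 together were at 0 to 0.925 CPM in VEH, 0.0924 to 0.630 in PB and 0.0963 to 0.607 in LEV. The summed level there thus rested mostly on other genes of the list, and r within that set is no check against Ckm or Myh4.

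**Figure D4:**
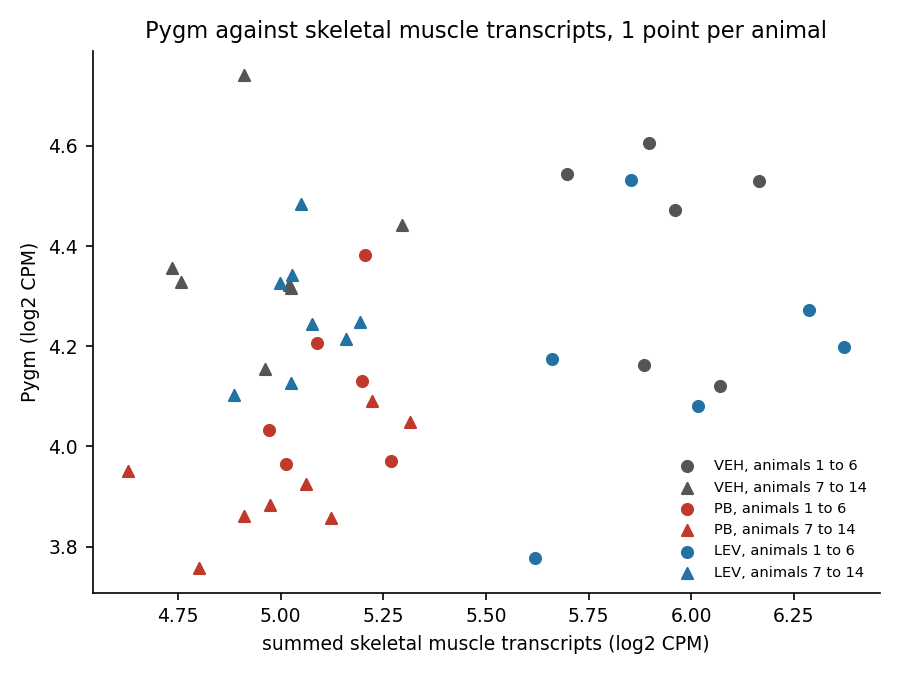
Pygm (log2 CPM, vertical axis) against the summed skeletal muscle transcripts (log2 CPM, horizontal axis), with 1 point per animal, colours for the treatments, circles for animals 1 to 6 and triangles for animals 7 to 14. The VEH and LEV circles lie to the right of every other point, and the PB triangles lie below the VEH and LEV triangles at like values of the sum. Among the triangles the sum rests mostly on genes of the list other than Ckm and Myh4.

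Other cell types were read in the same way. The summed level of 14 astrocyte genes was 5927 to 6540 CPM in VEH, 5567 to 6690 in PB and 5787 to 6382 in LEV in animals 7 to 14, and 5332 to 6255, 5075 to 5639 and 4696 to 5323 in animals 1 to 6. Of their 23 transcripts 2 were called after PB, against 0.605% of all tested transcripts. These were Slc7a10, an amino acid transporter (-0.36, SE 0.05, edgeR adjusted p = 5.08e-05), and Gfap, an intermediate filament protein (0.32, SE 0.06, adjusted p = 0.00241). With no fold limit 5 of the 23 passed as lower and 1 as higher, where 5.39% of all tested transcripts passed. Of the 23 values 16 were below 0, beside 6277 of all 13062 tested transcripts. Genes of the choroid plexus, which lies beside the hippocampus, summed to 26.5 to 7738 CPM between animals, and each treatment held both low and high animals. All 9 of their transcripts were above 0 after PB (median log2 fold change 0.62) and after LEV (median 0.67), with 0 called by edgeR and 0 with an unadjusted p under 0.05 in each. Red blood cell genes summed to 667 to 1632 CPM in animals 1 to 6 of the 3 groups and to 23.2 to 602 in animals 7 to 14. Opalin, a myelin protein, was lower after PB (-1.39, SE 0.41, adjusted p = 0.0339), and Cd68, a lysosomal protein of microglia, was higher (0.97, SE 0.17, adjusted p = 0.00064). Against LEV, Opalin (-1.85, SE 0.39, adjusted p = 0.00496) and Mobp, a further myelin protein (-1.39, SE 0.36, adjusted p = 0.0211), were lower in PB. The part of these in the enzyme values was not tested.

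The genes that control glycogen or break it down by other routes showed no call. Of 26 genes listed, 23 were found, with 24 transcripts, of which 23 passed the filter. 0 of 23 were called by edgeR after PB and 0 by DESeq2. An unadjusted edgeR p under 0.05 was found for 3 of 23, beside 2639 of all 13062 tested transcripts. The smallest p values after PB belonged to Phkg1, a catalytic subunit of phosphorylase kinase, which activates phosphorylase (0.44, SE 0.16, adjusted p = 0.0916). Next came Ppp1cc, a catalytic subunit of protein phosphatase 1 (NM_022498, -0.07, SE 0.03, adjusted p = 0.147), Ppp1r3d, which targets that phosphatase to glycogen (-0.15, SE 0.06, adjusted p = 0.16), and Gsk3a, a kinase that inhibits glycogen synthase (-0.06, SE 0.04, adjusted p = 0.335). The median log2 fold change of the 23 was -0.02 after PB and 0.00 after LEV. After LEV 0 of 23 were called by edgeR or DESeq2 and 0 had an unadjusted p under 0.05, and Phkg1 had 0.13 (SE 0.16, adjusted p = 0.957).

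Glucose released from glycogen enters glycolysis, and some transcripts of glycolysis and of glucose and lactate transport were slightly lower after PB. Of 30 transcripts of 22 genes, 0 reached the fold limit, 13 had an edgeR adjusted p under 0.05 with all 13 lower, and 17 had an unadjusted p under 0.05. Over all tested transcripts 5.39% passed the adjusted p alone and 3.46% were lower, and 2639 of 13062 had an unadjusted p under 0.05. The smallest p values were those of Pfkm, the muscle form of phosphofructokinase (-0.15, SE 0.03, adjusted p = 0.00534), and Pgk1, phosphoglycerate kinase (-0.13, SE 0.03, adjusted p = 0.0102). The median log2 fold change of the 30 was -0.10, beside 0.00 over all tested transcripts. Transcripts of hippocampal neurons moved with this list, as 10 of 11 were below 0 after PB, with a median of -0.11. Of the 11, 0 were called by edgeR and 5 had an unadjusted p under 0.05, all 5 lower. Among all 13062 tested transcripts 6277 were below 0, and 1360 were lower with an unadjusted edgeR p under 0.05. The summed level of the neuron genes was 2473 to 3132 CPM in PB and 2956 to 3389 in VEH in animals 1 to 6. In animals 7 to 14 it was 2739 to 3239 in PB and 3113 to 3479 in VEH. The part of neurons in the values of the list was not tested. The 13 include 2 entries each of Eno2 and Ldhb, whose reads could not be assigned to 1 entry with certainty. After LEV 0 of 30 were called by edgeR and 0 had an unadjusted p under 0.05, and the median was 0.01. For PB against LEV 13 were lower with an adjusted p under 0.05, which 4.45% of all tested transcripts passed in either direction, and 1 was called, a transcript of Aldoa, an aldolase (NM_001271536, -0.38, SE 0.08, adjusted p = 0.00336).

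**Figure D5:**
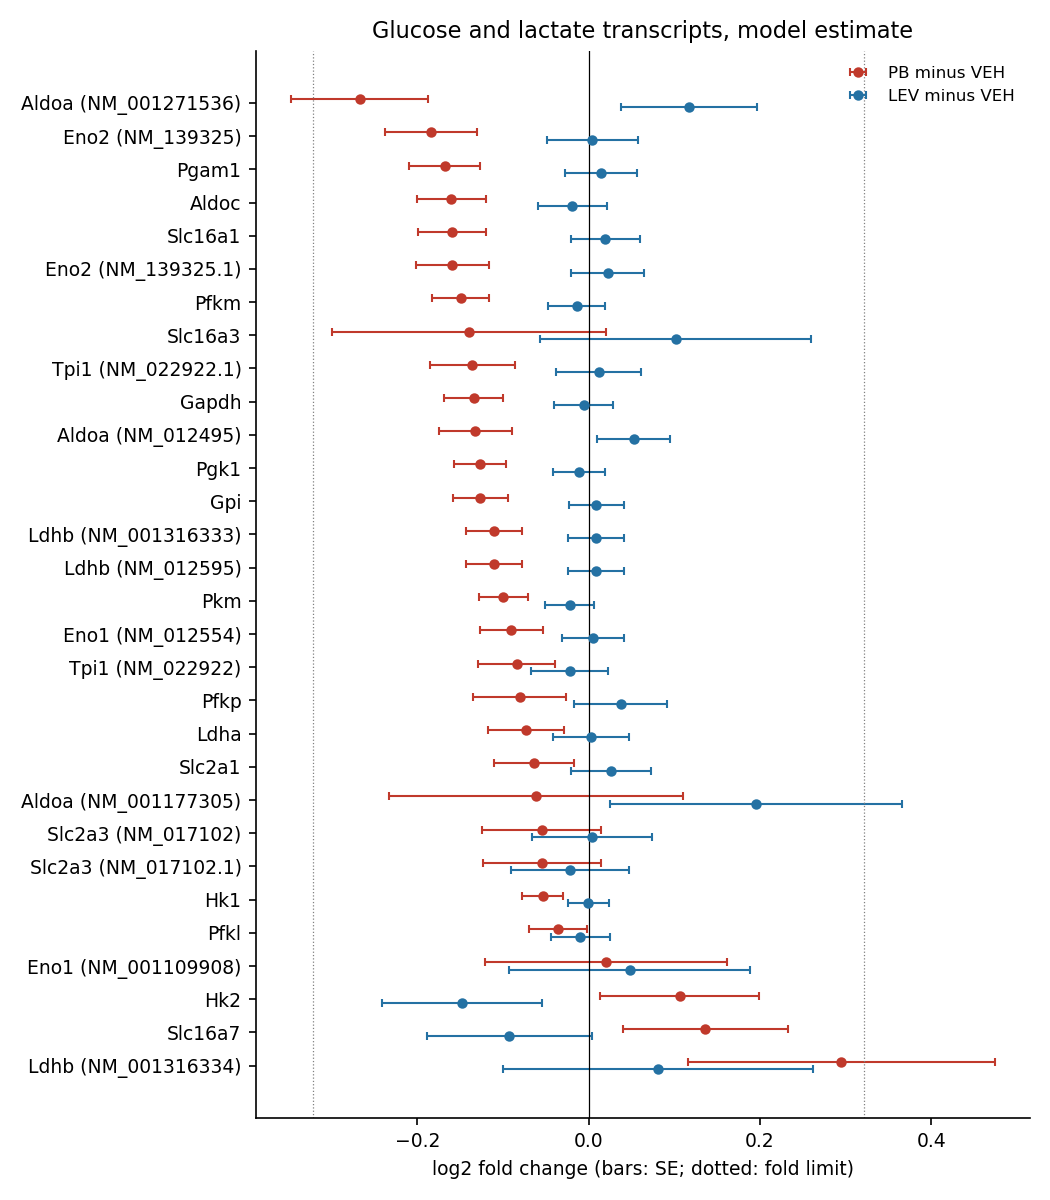
Log2 fold change (horizontal axis, with SE bars) of 30 transcripts of glycolysis and of glucose and lactate transport for PB and LEV against VEH, ordered by the PB value, where dotted lines mark the fold limit of 0.32. The PB values have a median of -0.10 and the LEV values one of 0.01.

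The transcripts whose levels followed Pygm most closely were ranked by Pearson r over the 41 animals after the code form had been removed. As treatment differences were left in, these values are a description of likeness only. They were Nmb, the neuropeptide neuromedin B (r = 0.717), RGD1559896 (0.652), Smad3, a transcription factor of TGF-beta signalling (0.651), Ahcyl1, a partner of the inositol trisphosphate receptor (0.65), Slc7a10 (0.643), Glud1, glutamate dehydrogenase (0.637), Pdk2, a pyruvate dehydrogenase kinase (0.626), and Pc, pyruvate carboxylase (0.625). Among the enzymes, Pygb had r = 0.457, Pgm1 0.362, Gys1 0.297, Gyg1 -0.05, Ugp2 -0.07, Gbe1 -0.10 and Pygl -0.20. With treatment means removed as well, Smad3 (r = 0.7) and Nmb (0.683) led, followed by Plekhh3 (0.669), Tns2 (0.624), Selenbp1 and LOC103689947, 3 entries that share reads (0.593 to 0.611), and Bcan, the proteoglycan brevican (0.61). The value of Pygb was then 0.0851, that of Pgm1 0.109 and that of Gys1 0.153. The labels do not say what else animals share, so these values are across animals and may rest on a common source.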

How the data were processed

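Hippocampal RNA of 42 rat pups was sequenced with paired-end reads, and 41 libraries were analysed. The authors aligned reads to rn6 with STAR 2.7.3a and quantified RefSeq transcripts by the E/M method of Partek. The deposited table holds these estimated counts before normalization, and 13.7% of its values were not whole. A second deposited table holds the authors' own comparisons (p values, fold changes and group means) and was not used. Rounded counts were fitted with edgeR 4.0.16 in R 4.3.3 (TMM, filterByExpr by treatment, glmQLFit and glmQLFTest, the 3 groups with the code form as a term), and SE is the log2 fold change divided by the root of its F statistic. The authors instead removed batch effects, batch by treatment included, before DESeq2. DESeq2 1.42.0 was used here as an alternative. The script was tested on simulated data.

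Members and lists were chosen with earlier results of these data known. Named were all members, Ckm and Myh4, list transcripts called in any comparison, the 4 smallest p values of the glycogen list and the 2 smallest of the glucose list after PB, and the 8 transcripts most like Pygm in each ranking. A gene of the glycogen list that entered its counts is not reported by name here. CPM values used the TMM library sizes, with a prior count of 2 on the log2 scale for correlations, which had 100000 permutations. No libraries within a group were duplicates, as chi-square per degree of freedom between libraries of a group ran from 4.11 to 121. Libraries of different groups were not compared in this way. Promoter windows came from RefSeq on GRCr8, while coordinates of transcripts are those of the deposited table. Alternatives covered normalization, filters, batch terms, limits, the excluded animal and each animal left out in turn.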

Additional observations from a re-analysis of the deposited data

Results flagged for a closer look

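For LEV, Pygb gave different values in animals 1 to 6 and animals 7 to 14. The difference of the log2 fold changes was -0.20 (edgeR interaction test, adjusted p = 0.0382, under 0.05 in 20 of 41 fits that each left out 1 animal), with all 6 LEV animals below the lowest VEH animal in the first set and 6 of 8 over the VEH average in the second. The summed astrocyte transcripts followed the same pattern, with LEV (4696 to 5323 CPM) below VEH (5332 to 6255) and no overlap in animals 1 to 6, and with overlap in animals 7 to 14. Muscle transcripts were higher in VEH and LEV of animals 1 to 6 than in animals 7 to 14, and red blood cell transcripts in all 3 groups, but LEV and VEH overlapped in both. The part of these in the difference was not tested.

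The excluded VEH animal 7 entered no comparison, and 4 of the 8 enzymes lay above the whole range of the other 13 VEH animals there. Its normalized count was 453 for Pygm (196 to 303 in the others), 5917 for Pygb (3641 to 4423), 657 for Gys1 (437 to 545) and 1510 for Pgm1 (867 to 1050). Ugp2 (300.4, against 722 to 1007) and Gyg1 (344, against 467 to 657) lay below the range. It had 8 counts of Ckm and 14 of Myh4. The study left it out for its sequencing coverage, which the count table does not hold.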

How the results depend on the processing

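The count of 1 enzyme called after PB, the selected Pygm, was 0 in animals 1 to 6 alone (log2 fold change -0.30) and 2 with no fold limit, and it was 1 under every other alternative run. The PB against LEV count of 0 became 1 in animals 7 to 14 alone (Pygm -0.34), with the animals of at least 10 Ckm counts left out (Pygm -0.34) and with no fold limit. The other glycogen genes went from 0 to 1 called after PB at an adjusted p under 0.1. Muscle transcripts called after PB (3) became 17 with no filter on low counts, 6 in animals 1 to 6 alone, 1 with a mean of at least 50 counts, with only the 2 groups compared and with DESeq2 at default, and 0 in animals 7 to 14 alone, with the muscle covariate and with the Ckm animals left out. With each animal left out in turn this count ran from 1 to 4, and it was 1 without LEV animal 1, 2, 3, 4, 5 or 6. The filter on low counts was run again in each of these fits. The Pygb difference between sets for LEV stayed near its size with no filter (-0.20, adjusted p = 0.0623) and was -0.12 with all 14 VEH animals (adjusted p = 0.694), so that 0 of 8 enzymes passed in each. With single animals left out, which was chosen after seeing the data, it ran from -0.23 to -0.18 and the count from 0 to 1, with 0 without VEH animal 1, 2, 3, 5, 6, 9, 11 or 12, PB animal 1, 3, 4, 5 or 6, or LEV animal 1, 3, 4, 5, 6, 7, 9 or 10. The adjusted p of Pygb after PB was over 0.05 without VEH animal 1, 3, 8, 13 or 14 or PB animal 6, 7, 9, 10 or 11. It was 0.131 with no code form term, 0.0869 in animals 1 to 6 alone, 0.29 in animals 7 to 14 alone, 0.0504 with all 14 VEH animals and also with only the 2 groups compared, 0.0669 with the muscle covariate and 0.251 with the Ckm animals left out, a setting that keeps VEH and LEV animals 7 to 14 alone.

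Signs changed for uncalled values close to 0. In animals 1 to 6 alone Gbe1 was 0.14 for PB and Pygb 0.046 for PB against LEV. In animals 7 to 14 alone Ugp2 was -0.012 for PB, Pygb 0.029, Pygl 0.0041, Gys1 0.0021, Gbe1 -0.12 and Ugp2 -0.017 for LEV, and Ugp2 0.0043 for PB against LEV. With all 14 VEH animals Gbe1 was 0.0032 for PB and Gyg1 0.0016 for LEV, and with the muscle covariate Pygl was 0.0041 for LEV. With the Ckm animals left out, which was chosen after seeing the data, Ugp2 was -0.012 for PB, Pygb 0.027, Pygl 0.0027, Gys1 0.00032, Gbe1 -0.12 and Ugp2 -0.018 for LEV, and Ugp2 0.0056 for PB against LEV. When each animal was left out, Gbe1 ran from -0.037 to 0.021 for PB, Pygl from -0.060 to 0.048 for LEV, and Ugp2 from -0.021 to 0.015 and Gyg1 from -0.031 to 0.0021 for PB against LEV. Correlations with the muscle level changed sign for Ugp2 (-0.231 in animals 1 to 6, -0.00331 without the 2 farthest animals), Gys1 (0.0742 in animals 7 to 14, 0.0947 with Ckm and Myh4 alone) and Pygl (0.014 with Ckm and Myh4 alone). The causes were not tested.

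A replicate block on the animal number gave 1 enzyme called after PB (Pygm -0.38), and it changed no call, while the adjusted p of Pygb after PB became 0.0782. Of 40 pairs of same-numbered animals 10 had a correlation of deviations over 0.1, and 7 of 41 animals matched their own number best. The study describes 1 animal per litter in each group with treatments balanced within litter, but the labels do not tie numbers to litters. Whether a number marks a litter is thus not known, and the numbers were not taken as pairs. No animal had more than 5 times the median muscle level, so that alternative was not run. Pygl, at 30 to 82 counts, is where depth limits most.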
